A study of Saccharomyces cerevisiae with 12 samples.

Results

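MMS2 and 9 other genes of the DNA damage tolerance pathway of budding yeast were followed across 2 intron deletions, the wild type and 2 phases of growth. The 10 genes were taken by systematic name from a deposited table of 7126 genes: MMS2 (YGL087C), UBC13 (YDR092W), RAD5 (YLR032W), RAD18 (YCR066W), RAD6 (YGL058W), POL30 (YBR088C), REV1 (YOR346W), REV3 (YPL167C), REV7 (YIL139C) and RAD30 (YDR419W). All 10 had a row in the table, and all 10 passed the filter on low counts. The 12 libraries were ribodepleted total RNA of Saccharomyces cerevisiae strains of the BY background, each labelled as 1 of 3 genotypes: mms2Δi, which lacks the intron of MMS2, ysf3Δi, which lacks the intron of the splicing factor gene YSF3, and the wild type. Each genotype was represented by 2 strains, and each strain was harvested after 48 h and in log phase, so that a group has 2 libraries. All strains grew in synthetic minimal medium with 2% glucose, supplemented with histidine, leucine, uracil and lysine. The labels do not say how the strains relate to each other, how many bases each deletion removed or whether any marker was left behind, and no library was treated with a DNA-damaging agent. The p-values rest on the spread between libraries of a group, pooled over the 6 groups and shared in part across genes. The main fit takes the 12 libraries as independent, although each strain appears in both phases. With 2 strains per genotype, the p-values do not measure how much strains of a genotype differ.

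When a replication fork meets a damaged base, the sliding clamp PCNA, encoded by POL30, becomes the platform on which the cell chooses how to continue. Rad6, a ubiquitin-conjugating enzyme, and its partner ligase Rad18 attach a single ubiquitin to PCNA, which favours translesion synthesis by the polymerases encoded by REV1, REV3 with REV7, and RAD30. The heterodimer of Mms2, a conjugating-enzyme variant without a catalytic cysteine, and Ubc13, its active partner, works with the ligase and DNA-dependent ATPase Rad5 to extend that ubiquitin into a chain, which favours error-free template switching. Rad6 also serves other ligases, among them Bre1 for histone H2B and Ubr1 for protein degradation.

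MMS2 and UBC13 were the only members annotated with an intron, so both proteins of the Mms2-Ubc13 dimer come from spliced transcripts. Both introns are shown because 1 of them is what the mms2Δi strains lack, and its partner's intron stayed in all strains. They were read from the R64 reference, the same build as sacCer3. Capitals mark the 5′ splice site GTATGT, the branch-point motif TACTAAC and the 3′ splice site, 5′ to 3′ on the transcribed strand.
MMS2 intron, chrVII:346809-346893, minus strand: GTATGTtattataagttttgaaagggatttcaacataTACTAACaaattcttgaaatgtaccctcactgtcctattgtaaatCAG
UBC13 intron, chrIV:629906-630173, plus strand: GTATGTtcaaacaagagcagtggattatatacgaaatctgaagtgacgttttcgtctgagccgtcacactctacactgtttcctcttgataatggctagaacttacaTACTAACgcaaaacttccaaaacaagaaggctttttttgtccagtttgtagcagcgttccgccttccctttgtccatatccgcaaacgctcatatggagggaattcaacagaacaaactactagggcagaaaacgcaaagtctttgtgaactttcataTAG
The MMS2 intron is 85 nt long with 29.4% G and C, and it follows only 11 nt of coding sequence. The UBC13 intron is 268 nt long with 41.0% G and C and follows 30 nt of coding sequence. After the last base of TACTAAC, 41 nt remain to the end of the intron in MMS2 and 154 nt in UBC13. Among 260 annotated introns of at least 50 nt in genes with 2 coding exons, 71.9% began with GTATGT, 83.5% held TACTAAC and 99.2% ended with AG, and the median length was 148 nt. Of these, 41 introns were shorter than that of MMS2 and 148 were shorter than that of UBC13. MMS2 itself spans chrVII:346406-346904 on the minus strand and UBC13 chrIV:629876-630605 on the plus strand.

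Library totals ran from 4871513 to 16581925 counts, and the 48 h libraries of strain 1 of each genotype were the smallest of their groups. The strains of a group correlated across genes at 0.978 to 0.992 (Pearson's r). Wild-type strain 1 stood apart in its mating-type genes, and the labels give no mating type. In log phase it had 361 CPM of total for the alpha-factor gene MF(ALPHA)1 and 621 for the a-factor receptor gene STE3, whereas no other strain exceeded 0.317 and 4.56 CPM, and its level of STE2, the alpha-factor receptor gene of a cells, was 10.3 CPM against 674 to 915 CPM elsewhere. Small nucleolar and spliceosomal RNAs took 4.95 and 5.28% of the log-phase counts in mms2Δi strains, 6.76 and 4.44% in ysf3Δi strains, and 3.46 and 2.84% in the wild type. At 48 h these shares were 10.8 and 13.0% in mms2Δi strains, 11.6 and 11.0% in ysf3Δi strains, and 5.93 and 7.27% in the wild type. The shares were higher in both deletions than in the wild type, and their part in the differences given here was not tested. Levels are given as CPM with TMM scaling (counts divided by the effective library size), and log2 fold changes ± SE and adjusted p come from the quasi-likelihood test of edgeR fitted to all 12 libraries and 6068 genes.

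To set the members side by side, counts were divided by coding length (CPM per kb). That division assumes that reads were counted over all coding exons of a gene. In wild-type cells in log phase RAD6 was the highest member at 153 ± 9.74 CPM per kb (SD, n = 2). REV1 followed at 66.0 ± 1.14 and UBC13 at 58.4 ± 4.42 CPM per kb, with no overlap between their libraries. MMS2 at 39.1 ± 0.940 and RAD30 at 38.5 ± 6.28 CPM per kb overlapped. REV7 at 22.9 ± 5.61, RAD5 at 21.9 ± 0.931 and POL30 at 21.6 ± 5.24 CPM per kb overlapped as well, and REV3 at 15.7 ± 0.543 and RAD18 at 13.4 ± 0.616 were the lowest. After 48 h in the wild type POL30 was the lowest at 4.17 ± 0.741 CPM per kb, and RAD5 stood at 40.9 ± 1.19. POL30 overlaps the dubious frame YBR089W, which has its own row, and the strandedness of counting is not given. Reads in that overlap may thus be missing from the POL30 level.

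The deposited FPKM could not be used for this order. Each FPKM was compared with its count, and the gene length it implies was that of a single exon, the one with the lower coordinates, in 290 of 291 genes with 2 coding exons, within 0.5 nt. In 5289 of 5293 genes with 1 coding exon it was the coding length. For MMS2 that exon is the large one, 403 of 414 coding nt, and the value was little affected. For UBC13 it is the exon of 30 nt, of 462 coding nt, so its FPKM, 960.0 on average in the wild type in log phase, is 15.4 times the FPKM that the coding length would give. Counts were not lower in the genes with a short lower exon: 69 genes with 2 coding exons and a lower exon of at most 30 nt had a median of 1050 counts. The other 222 had 543. These sets hold different genes, so the medians do not test how reads were assigned to exons.

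**Figure D1:**
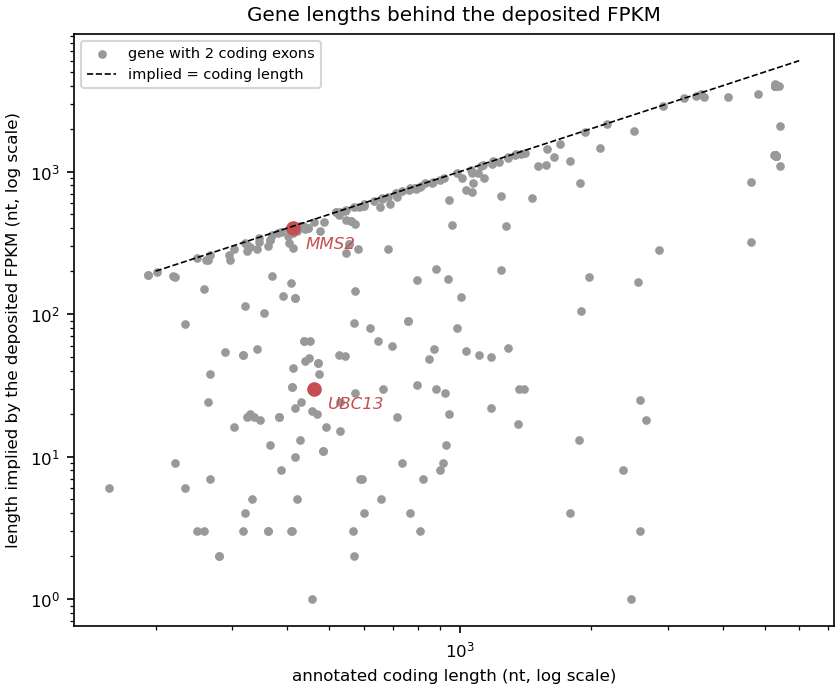
Length implied by the deposited FPKM and count (vertical axis, nt, log scale) against the annotated coding length (horizontal axis, nt, log scale) for genes with 2 coding exons; each point is a gene and the dashed line marks equality. MMS2 at 403 nt lies next to the line, and UBC13 at 30 nt lies far below it.

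MMS2 mRNA did not pass the test in the strains that lack its intron. In log phase MMS2 had 22.1 and 20.8 CPM in the mms2Δi strains, against 16.5 and 15.9 CPM in the wild type. The groups did not overlap, and the log2 fold change was 0.40 ± 0.17 (95% interval 0.04 to 0.77), with an unadjusted p of 0.0343 and an adjusted p of 0.0891 in edgeR. At 48 h it had 20.3 and 26.4 CPM in the mms2Δi strains, against 21.9 and 21.5 CPM in the wild type. Both wild-type values lay between those of the mms2Δi strains, and the log2 fold change was 0.12 ± 0.17 (95% interval -0.26 to 0.50, adjusted p of 0.669). A 2-fold change in either direction, 1 on the log2 scale, lies outside both intervals. Without wild-type strain 1 the values were 0.44 with an adjusted p of 0.170 in log phase and 0.10 with an adjusted p of 0.875 at 48 h. In ysf3Δi strains, which keep the MMS2 intron, it had 15.8 and 15.2 CPM in log phase and 19.5 and 17.1 CPM at 48 h, with log2 fold changes of -0.06 ± 0.17 and -0.25 ± 0.17 against the same wild-type libraries (adjusted p of 0.810 and 0.426). YSF3 itself was at 0.77 ± 0.31 in log phase and -0.10 ± 0.33 at 48 h in the ysf3Δi strains (adjusted p of 0.0856 and 0.897). The counts hold a single value per gene, so neither deletion can be checked in them. Total RNA was pooled from whole cultures, so fewer cells of a type and less RNA per cell cannot be told apart, here or in the comparisons that follow.

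**Figure D2:**
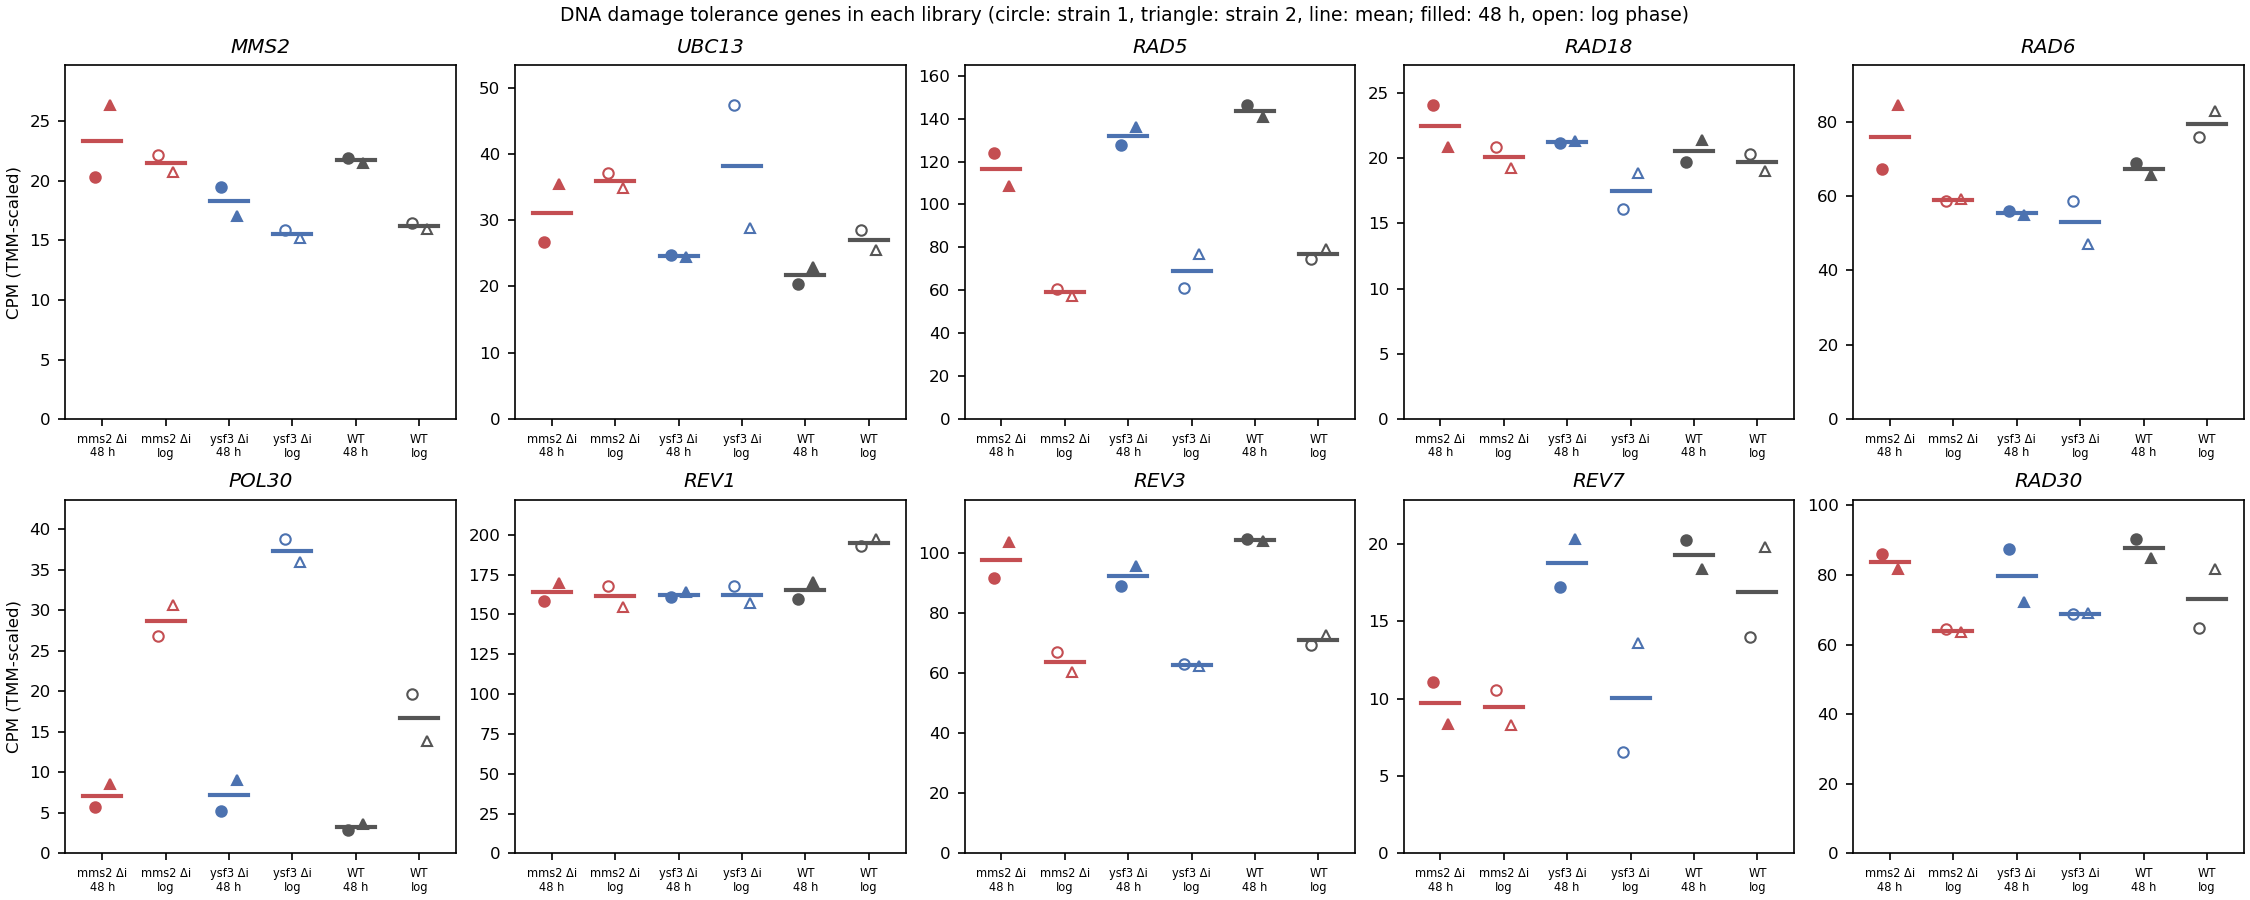
TMM-scaled CPM (vertical axes, linear from 0) of each of the 10 genes in each library, by group (mms2Δi, ysf3Δi and wild type, each at 48 h and in log phase); circles are strain 1, triangles strain 2 and lines the means. POL30 is below 10 CPM in all 48 h libraries and at 13.9 or more in all log-phase libraries, while MMS2 stays between 15.2 and 26.4 CPM throughout.

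MAD1 and snR10, on either side of MMS2, were called in the mms2Δi strains against the wild type, and snR10 in the ysf3Δi strains as well. MAD1 (YGL086W), a spindle checkpoint gene, starts 214 bases from the start of MMS2 and is read in the opposite direction. It had 133 and 114 CPM in the mms2Δi strains in log phase, against 168 and 202 CPM in the wild type, and 116 and 89.4 CPM in the mms2Δi strains at 48 h, against 193 and 157 CPM in the wild type. MAD1 fell by 0.58 ± 0.17 in log phase (adjusted p of 0.0319) and by 0.77 ± 0.17 at 48 h (adjusted p of 0.0257) in edgeR. In ysf3Δi strains its log2 fold changes were -0.48 ± 0.17 and -0.31 ± 0.17 (adjusted p of 0.0586 and 0.334), and the deletions set against each other gave -0.10 ± 0.17 in log phase and -0.47 ± 0.17 at 48 h (adjusted p of 0.999 and 0.738). The log-phase call for MAD1 was lost without strain 2 of either genotype or without mms2Δi strain 1. The 48 h call for MAD1 was lost without wild-type strain 1 (-0.64) or mms2Δi strain 2 (-0.60). It was also lost with only the libraries compared (-0.83, adjusted p of 0.0614 in edgeR). On the other side of MMS2, 175 bases beyond its end, lies snR10, a small nucleolar RNA of ribosomal RNA processing (chrVII:345986-346230, plus strand). snR10 had 8.36 and 7.97 CPM in the mms2Δi strains in log phase, against 2.98 and 2.39 CPM in the wild type, and 11.8 and 21.4 CPM in the mms2Δi strains at 48 h, against 3.03 and 7.17 CPM in the wild type. It rose by 1.60 ± 0.46 in log phase and by 1.63 ± 0.45 at 48 h (adjusted p of 0.03 and 0.045), and in ysf3Δi strains by 2.45 ± 0.45 and 2.19 ± 0.44 (adjusted p of 0.00718 and 0.039). For snR10, mms2Δi minus ysf3Δi was -0.85 ± 0.42 in log phase and -0.56 ± 0.41 at 48 h (adjusted p of 0.999 and 0.826 in edgeR). As given above, the share of small nucleolar and spliceosomal RNAs was higher in both deletions, and its part here was not tested. The log-phase call for snR10 in mms2Δi strains was lost when any 1 of its 4 libraries was left out (1.45 to 1.78). The 48 h call for snR10 was lost without wild-type strain 1 (1.21) or mms2Δi strain 2 (1.10). It was also lost by library totals (1.45), with only the libraries compared (1.57) and with the strain number as a block (1.63), at adjusted p of 0.0538, 0.0683 and 0.0668 in edgeR. In ysf3Δi strains the log-phase call for snR10 was lost without wild-type strain 2 (2.31). Its 48 h call in ysf3Δi strains was lost without wild-type strain 1, without either ysf3Δi strain and with the strain number as a block. The open reading frame YGL088W (chrVII:345836-346201) overlaps snR10 on the same strand. How reads in the overlap were assigned is not given in the sources used here. The snR10 row held 16 to 396 counts per library and the YGL088W row 2826 to 24679, so the snR10 values may cover only part of its reads. YGL088W had 635 and 255 CPM in the mms2Δi strains in log phase, against 414 and 238 CPM in the wild type. It did not pass there (0.45 ± 0.44, adjusted p of 0.449 in edgeR) or at 48 h (1.01 ± 0.44, adjusted p of 0.149). In ysf3Δi strains YGL088W rose by 1.95 ± 0.44 in log phase (adjusted p of 0.0125), lost without wild-type strain 2 (1.62, adjusted p of 0.120) or ysf3Δi strain 1 (1.34, adjusted p of 0.0593), and it was at 1.31 ± 0.44 at 48 h (adjusted p of 0.138).

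UBC13, the catalytic partner of Mms2, had 37.1 and 34.8 CPM in mms2Δi strains in log phase, against 28.4 and 25.6 CPM in the wild type. At 48 h it had 26.7 and 35.5 CPM in mms2Δi strains, against 20.4 and 23.0 CPM in the wild type. The mms2Δi libraries were the higher ones in both phases, without overlap, but the log2 fold changes of 0.41 ± 0.22 and 0.52 ± 0.23 did not pass (adjusted p of 0.181 and 0.152). In ysf3Δi strains UBC13 had 47.4 and 28.8 CPM in log phase and 24.7 and 24.5 CPM at 48 h. The log-phase strains differed most, and the call depended on them: 0.50 ± 0.22 with an adjusted p of 0.119, against 0.86 with an adjusted p of 0.014 when ysf3Δi strain 2 in log phase was left out. The ratio of UBC13 to MMS2 per coding length was 1.17 and 1.20 at 48 h and 1.50 and 1.50 in log phase in mms2Δi strains. In ysf3Δi strains it was 1.14 and 1.29 at 48 h and 2.68 and 1.70 in log phase, and in the wild type 0.834 and 0.956 at 48 h and 1.55 and 1.44 in log phase. All 6 strains had a lower ratio at 48 h than in log phase, and the wild type at 48 h was the group in which UBC13 was below MMS2.

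Of the 10 members, edgeR called 0 in mms2Δi strains against the wild type in log phase, where it called 27.2% of all genes, 842 higher (13.9%) and 809 lower (13.3%). Scaled by library totals, that split was 602 higher and 1351 lower. At an unadjusted p under 0.05 there were 6 members, beside 43.2% of all genes, and DESeq2 called 2, POL30 and REV7, beside 30.5% of the genes it tested. At 48 h edgeR again called 0 members, against 10.6% of all genes (8.54% or 518 higher and 2.09% or 127 lower, against 315 and 279 by library totals), with 3 at an unadjusted p under 0.05 (31.6% of all genes) and 2, again POL30 and REV7, by DESeq2 (16.7% of the genes it tested). The median log2 fold change of the members was -0.18 in log phase and 0.05 at 48 h, beside -0.01 and 0.04 over all genes tested. The genome-wide count in log phase rested on 2 libraries: it was 1651 genes with all libraries, 6 without wild-type strain 2 and 0 without mms2Δi strain 2. At 48 h it was 645 genes with all libraries, 0 without wild-type strain 1 and 1 without mms2Δi strain 2, 235 with only the libraries compared, 390 with the strain number as a block and 987 by DESeq2.

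In ysf3Δi strains, compared with the same wild-type libraries, 1 member was called higher and 1 lower in log phase, where 27.2% of all genes were called (13.7% or 830 higher and 13.5% or 822 lower, against 613 and 1443 by library totals). At 48 h edgeR called 0, against 2.77% of all genes (2.49% or 151 higher and 0.28% or 17 lower, against 95 and 35 by library totals), with 1 member at an unadjusted p under 0.05 (20.4% of all genes) and 1, POL30, by DESeq2 (7.46% of the genes it tested). The 1652 genes called in log phase became 38 without wild-type strain 2 and 620 with only the libraries compared. The 168 called at 48 h became 0 without wild-type strain 1, without either ysf3Δi strain or with the strain number as a block, and 547 with only the libraries compared and 452 by DESeq2.

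POL30, the PCNA gene, was the member that stood highest above the wild type in both deletions. In log phase it had 26.8 and 30.6 CPM in mms2Δi strains, 38.8 and 35.9 CPM in ysf3Δi strains, and 19.6 and 13.9 CPM in the wild type. At 48 h it had 5.73 and 8.51 CPM in mms2Δi strains, 5.29 and 9.11 CPM in ysf3Δi strains, and 2.84 and 3.65 CPM in the wild type. Each deletion library exceeded both wild-type libraries of its phase. POL30 rose by 1.16 ± 0.26 in ysf3Δi strains in log phase (2.23-fold, adjusted p of 0.0124), a call that was lost without wild-type strain 2 (0.93, adjusted p of 0.116). In mms2Δi strains the log2 fold change was 0.78 ± 0.27 in log phase and 1.13 ± 0.33 at 48 h, both just over the threshold (adjusted p of 0.0521 and 0.0519). The log-phase value passed without wild-type strain 1 (1.06, adjusted p of 0.0415), and with only its own 4 libraries in the fit (0.79, adjusted p of 0.0443). The 48 h value for ysf3Δi strains was 1.13 ± 0.33 (adjusted p of 0.0832). The wild-type 48 h libraries held only 15 and 58 counts of POL30.

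None of the ubiquitin enzymes that act on PCNA was called higher, and RAD6 was called lower. RAD6 had 58.5 and 59.2 CPM in mms2Δi strains in log phase, 58.7 and 47.1 CPM in ysf3Δi strains, and 75.8 and 83.0 CPM in the wild type. All 4 deletion libraries were below both wild-type libraries. RAD6 fell by 0.59 ± 0.15 in ysf3Δi strains (adjusted p of 0.0183), a call that was lost without wild-type strain 2 (adjusted p of 0.140) or ysf3Δi strain 2 (adjusted p of 0.0957), and with only the 4 libraries compared (adjusted p of 0.0958). In mms2Δi strains its log2 fold change was -0.43 ± 0.15 (adjusted p of 0.0539). At 48 h RAD6 did not keep that order: it had 67.3 and 84.6 CPM in mms2Δi strains, against 68.8 and 65.5 CPM in the wild type, with a log2 fold change of 0.18 ± 0.15 (adjusted p of 0.430). RAD5 had 60.5 and 57.5 CPM in mms2Δi strains in log phase, against 74.7 and 79.3 CPM in the wild type, without overlap, and -0.38 ± 0.14 did not pass (adjusted p of 0.0633). RAD18, the ligase that recruits Rad6 to PCNA, lay between 16.1 and 24.1 CPM in all 12 libraries, and its log2 fold changes against the wild type were between -0.17 and 0.12.

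Among the translesion polymerase genes REV7, which encodes the accessory subunit of polymerase zeta, had the largest log2 fold changes in mms2Δi strains in both phases and in ysf3Δi strains in log phase, but not in ysf3Δi strains at 48 h (-0.03 ± 0.32). REV7 had 10.6 and 8.27 CPM in mms2Δi strains in log phase, against 14.0 and 19.8 CPM in the wild type, and 11.1 and 8.37 CPM in mms2Δi strains at 48 h, against 20.2 and 18.4 CPM in the wild type. The mms2Δi libraries lay below the wild-type libraries in both phases, and the log2 fold changes of -0.84 ± 0.32 and -1.01 ± 0.33 missed the threshold (adjusted p of 0.0712 and 0.0756) with wide intervals of -1.55 to -0.14 and -1.75 to -0.28. The ysf3Δi strains had 6.53 and 13.6 CPM in log phase and 17.2 and 20.3 CPM at 48 h, so that they were below the wild type in log phase and overlapped it at 48 h. REV1, the deoxycytidyl transferase that bridges the polymerases, had 168 and 155 CPM in mms2Δi strains in log phase, against 193 and 198 CPM in the wild type, with a log2 fold change of -0.27 ± 0.11 (adjusted p of 0.0871). For REV3, the catalytic subunit of polymerase zeta, and RAD30, polymerase eta, the log-phase values in mms2Δi strains were -0.16 ± 0.12 and -0.19 ± 0.14 (adjusted p of 0.337 and 0.322).

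**Figure D3:**
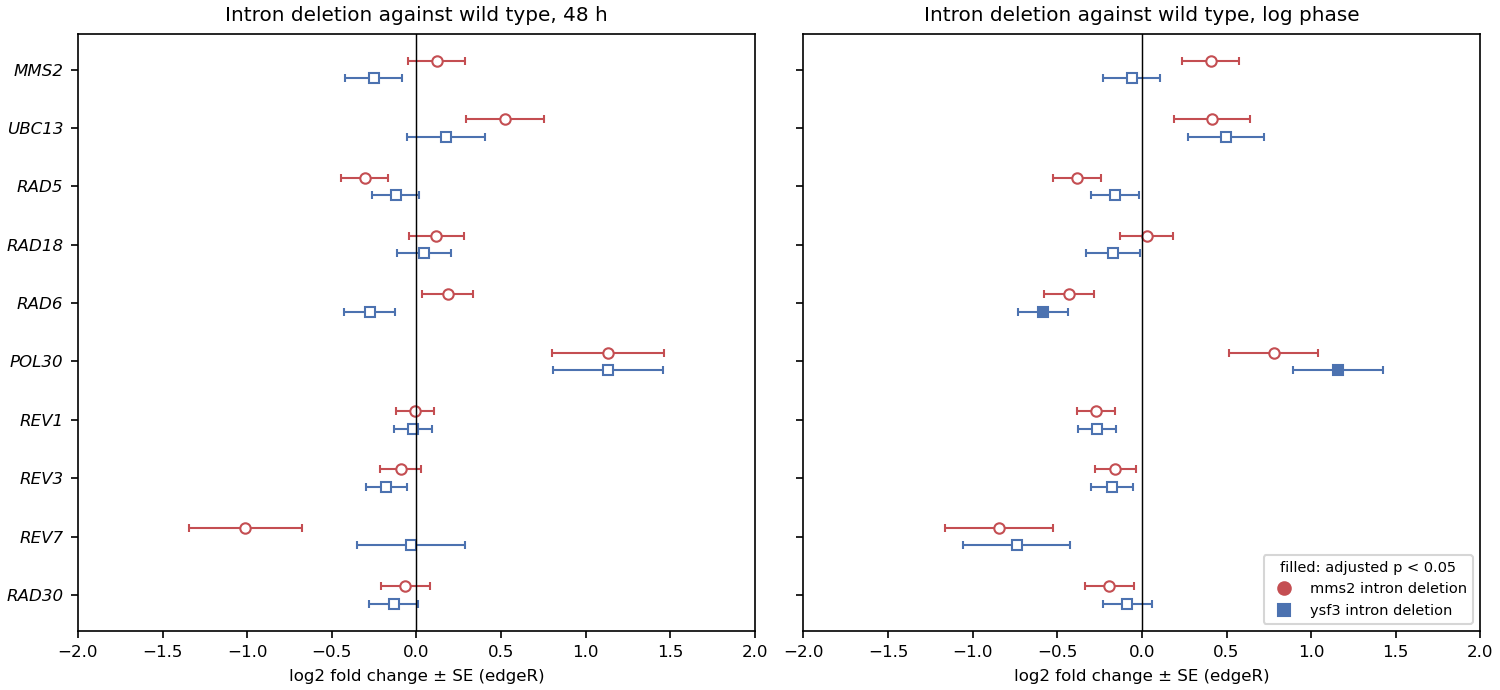
Log2 fold change ± SE (horizontal axis, edgeR) of each gene in mms2Δi strains (red circles) and ysf3Δi strains (blue squares) against the wild type, at 48 h (left) and in log phase (right); filled symbols have an adjusted p under 0.05, and both deletions share the wild-type libraries. The filled symbols are POL30 at 1.16 and RAD6 at -0.59 in ysf3Δi strains in log phase.

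Set directly against each other, without the wild type, the deletions showed 0 called members in log phase and 0 at 48 h, in comparisons where edgeR called 0% of all genes in either phase and DESeq2 called 4 and 11 genes, none of them a member. At an unadjusted p under 0.05 there was 1 member in log phase, beside 3.82% of all genes, and 2 at 48 h, beside 6.16%. The 1 in log phase was MMS2, which was above ysf3Δi in both mms2Δi libraries, at 0.47 ± 0.17 (95% interval 0.09 to 0.84, unadjusted p of 0.0187, adjusted p of 0.999). At 48 h MMS2 was at 0.37 ± 0.17 (95% interval -0.00383 to 0.75, unadjusted p of 0.0518), and the members under 0.05 were RAD6 at 0.46 ± 0.15 and REV7 at -0.98 ± 0.33 (unadjusted p of 0.0119 and 0.0136, adjusted p of 0.713 and 0.738). POL30 differed between the deletions by -0.38 ± 0.26 in log phase and 0.000196 ± 0.30 at 48 h, with 95% intervals of -0.96 to 0.20 and -0.67 to 0.67.

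More members were called between growth phases than between genotypes, and they moved in both directions. CPM are relative to the other RNA of a library, so a rise or fall here does not give RNA per cell. POL30 fell, RAD5 and REV3 rose, and this held in each genotype. Averaged over the 3 genotypes, 4 members rose and 2 fell, against 80.5% of all genes called, 40.7% higher and 39.8% lower, so the share of members called was below that of all genes. The median log2 fold change was 0.22 for the members and 0.02 for all genes. In mms2Δi 4 members rose and 1 fell, beside 64.1% of all genes called (33.4% higher and 30.7% lower). In ysf3Δi 3 rose and 2 fell, beside 66.8% (33.9% higher and 32.9% lower), and in the wild type 3 rose and 1 fell, beside 67.1% (32.8% higher and 34.3% lower).

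POL30 had 5.73 and 8.51 CPM at 48 h against 26.8 and 30.6 CPM in log phase in mms2Δi strains. It had 5.29 and 9.11 CPM at 48 h against 38.8 and 35.9 CPM in log phase in ysf3Δi strains, and 2.84 and 3.65 CPM at 48 h against 19.6 and 13.9 CPM in log phase in the wild type. Every 48 h library was below every log-phase library of any genotype. POL30 fell by 1.97 ± 0.29 in mms2Δi, by 2.35 ± 0.28 in ysf3Δi and by 2.32 ± 0.31 in the wild type (adjusted p of 0.000135, 2.85e-05 and 6.34e-05), which left 0.256, 0.197 and 0.200 of the log-phase level. Its neighbour RFC5, a clamp loader gene whose end faces that of POL30 across 160 bases, fell by 1.19 ± 0.14 over the 3 genotypes (adjusted p of 1.42e-05), and the strandedness of the counting is not given in the sources used here. A dubious frame that overlaps POL30, YBR089W, had a row of its own with 0 to 40 counts per library.

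RAD5, which encodes the ligase that pairs with Mms2-Ubc13, had 124 and 109 CPM at 48 h against 60.5 and 57.5 CPM in log phase in mms2Δi strains. It had 128 and 136 CPM at 48 h against 61.0 and 76.9 CPM in log phase in ysf3Δi strains, and 147 and 141 CPM at 48 h against 74.7 and 79.3 CPM in log phase in the wild type. All 6 strains had a higher CPM of RAD5 at 48 h, with no overlap between phases. RAD5 rose by 0.98 ± 0.14, 0.94 ± 0.14 and 0.90 ± 0.14 in mms2Δi, ysf3Δi and the wild type (adjusted p of 0.000118, 0.000142 and 0.000187), close to 2-fold each time. REV3 rose as well, by 0.62 ± 0.12, 0.55 ± 0.12 and 0.55 ± 0.12 (adjusted p of 0.00108, 0.00207 and 0.00202), with 88.7 to 104.6 CPM in the 48 h libraries and 60.2 to 72.7 CPM in the log-phase libraries. These calls for POL30, RAD5 and REV3 held in all 3 genotypes under every alternative tried.

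The promoters of POL30 and RAD5 are shown because these genes had the largest changes between phases, in opposite directions, and because both hold the hexamer ACGCGT, the MluI cell cycle box bound by the factor MBF. Each is the 300 bases before the start codon in the R64 reference, 5′ to 3′ on the strand of the gene. Capitals mark ACGCGT and the pentamer CCCCT or its reverse complement AGGGG, the core of the stress response element bound by Msn2 and Msn4.
POL30 promoter, chrII:425767-426066, minus strand: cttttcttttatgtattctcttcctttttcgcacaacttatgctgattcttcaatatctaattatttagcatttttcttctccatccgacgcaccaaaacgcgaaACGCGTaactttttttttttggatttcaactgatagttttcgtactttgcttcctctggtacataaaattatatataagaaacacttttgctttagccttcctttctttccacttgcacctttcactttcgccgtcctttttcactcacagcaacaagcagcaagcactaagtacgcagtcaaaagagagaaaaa
RAD5 promoter, chrXII:204691-204990, plus strand: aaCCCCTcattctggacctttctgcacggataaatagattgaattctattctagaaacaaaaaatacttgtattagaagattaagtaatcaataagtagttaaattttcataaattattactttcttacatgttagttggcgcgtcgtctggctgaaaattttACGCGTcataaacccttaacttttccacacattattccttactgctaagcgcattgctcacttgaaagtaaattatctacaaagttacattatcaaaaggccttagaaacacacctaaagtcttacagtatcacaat
ACGCGT, which is its own reverse complement, lies 195 bases before the start codon of POL30 and 137 bases before that of RAD5, and it was found in 209 of 6007 promoters of this length (3.5%). The other 8 members had none in this window. CCCCT on either strand was found in 1334 of the 6007 promoters (22.2%), and among the members in RAD5, REV3 and REV7. The motifs do not overlap, and a match is a match of letters, not a measured site.

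**Figure D4:**
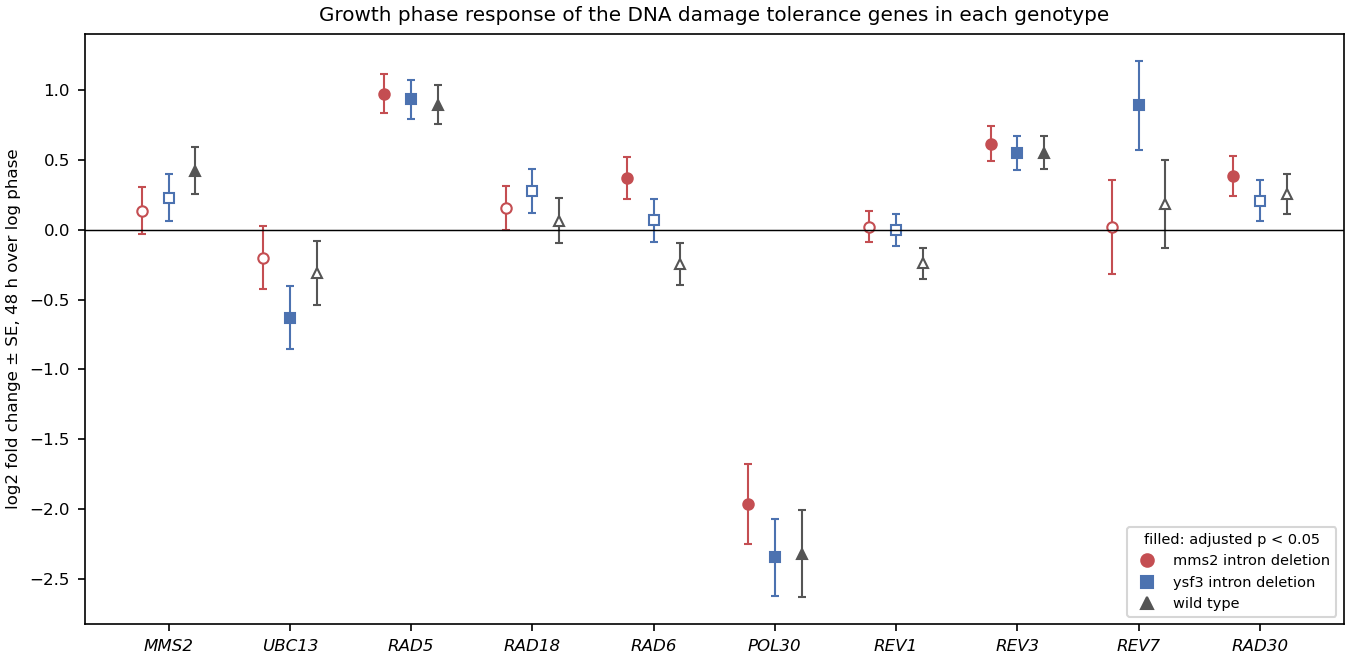
Log2 fold change ± SE at 48 h over log phase (vertical axis, edgeR) of each gene in mms2Δi strains (red circles), ysf3Δi strains (blue squares) and the wild type (grey triangles); filled symbols have an adjusted p under 0.05. POL30 lies between -2.35 and -1.97 and RAD5 between 0.90 and 0.98 in the 3 genotypes.

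MMS2 changed little with phase. It had 20.3 and 26.4 CPM at 48 h against 22.1 and 20.8 CPM in log phase in mms2Δi strains, an overlap, and the log2 fold change was 0.14 ± 0.17 (adjusted p of 0.493). In ysf3Δi strains the libraries at 48 h, 19.5 and 17.1 CPM, were above those in log phase, 15.8 and 15.2 CPM, without passing (0.23 ± 0.17, adjusted p of 0.25). In the wild type MMS2 rose by 0.42 ± 0.17 (adjusted p of 0.0454), and averaged over the genotypes by 0.26 ± 0.10 (adjusted p of 0.0274). With the strain as a replicate block both MMS2 calls were lost, at 0.42 (adjusted p of 0.107) and 0.26 (adjusted p of 0.0776), and they were lost without wild-type strain 1 as well, at 0.41 and 0.22 (adjusted p of 0.199 and 0.117). The difference between genotypes in this phase change was -0.29 ± 0.24 for mms2Δi minus wild type and -0.19 ± 0.24 for ysf3Δi minus wild type (adjusted p of 0.682 and 0.927), so a call in the wild type alone does not show that the deletions respond differently.

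Phase calls for UBC13, REV7, RAD6 and RAD30 depended on the genotype or the fit. UBC13 fell by 0.63 ± 0.23 in ysf3Δi (adjusted p of 0.0294), lost with the replicate block (-0.58, adjusted p of 0.0558) and without ysf3Δi strain 1 in log phase (-0.23, adjusted p of 0.342), and by 0.38 ± 0.13 on average (adjusted p of 0.0202), lost without wild-type strain 1 (-0.37, adjusted p of 0.0722). REV7 rose by 0.89 ± 0.32 in ysf3Δi (adjusted p of 0.0286), lost without ysf3Δi strain 1 in log phase (0.46, adjusted p of 0.185), and with the replicate block it also passed on average (0.40, adjusted p of 0.0453, against 0.37 and 0.0918). In mms2Δi RAD6 rose by 0.37 ± 0.15 and RAD30 by 0.39 ± 0.15 (adjusted p of 0.0499 and 0.0375). With the replicate block both were lost, at 0.36 and 0.39 (adjusted p of 0.0959 and 0.081 in edgeR). That left 3 called members in mms2Δi, beside 59.4% of all genes. RAD30 also rose on average, by 0.29 ± 0.08 (adjusted p of 0.00869), but not without wild-type strain 1 (0.18, adjusted p of 0.110). REV1 and RAD18 were called in none of the 3 genotypes, with average log2 fold changes of -0.07 ± 0.06 and 0.17 ± 0.09 (adjusted p of 0.318 and 0.113).

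No member passed the test of a difference in phase response. For mms2Δi minus wild type edgeR called 0 members and 0% of all genes. At an unadjusted p under 0.05 there was 1 member, RAD6, beside 9.36% of all genes. DESeq2 gave an adjusted p to only 1474 genes in this comparison and called 10 of them. None of the 10 was a member, but a member outside the 1474 could not have been called. For ysf3Δi minus wild type edgeR called 0 members and 0% of all genes, with 0 members at an unadjusted p under 0.05, beside 4.68% of all genes, and 0 genes called by DESeq2. In the authors' deposited tables, which list genes past a stricter threshold and whose signs run as here, RAD5 and POL30 appear in the phase comparison of each genotype, RAD5 at 0.93, 0.90 and 0.91 and POL30 at -1.98, -2.35 and -2.27 in mms2Δi, ysf3Δi and the wild type. The authors' deposited table of ysf3Δi against the wild type in log phase lists POL30 at 1.07 (adjusted p of 0.000829), and no other member appears in any of these tables.

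The genes that work with the pathway were taken as 6 lists and set beside the same 80.5% of all genes called between the phases, averaged over the genotypes. Of 20 genes of PCNA loading and the lagging strand, 14 fell and 3 rose, with a median of -0.53. Those with the smallest adjusted p were POL32, a polymerase delta subunit, which fell by 1.62 ± 0.10, MSI1, a chromatin assembly factor subunit, by 1.59 ± 0.12, and the clamp loader subunits RFC4 and RFC3, by 1.46 ± 0.12 and 1.33 ± 0.08 (largest adjusted p of the 4, 7.04e-07). POL32, for example, had 20.8 ± 3.23 CPM at 48 h against 60.1 ± 9.33 CPM in log phase in mms2Δi strains. CAC2, POL31 and RLF2 were the 3 that rose. POL30 thus fell beside most genes of its list, and its own fall was larger than that of any of them.

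Of 24 partners in template switching and recombination, 11 rose and 7 fell (median 0.16). RMI1, of the Sgs1-Top3 complex that dissolves crossed DNA strands, rose by 2.00 ± 0.11 and the translocase gene RAD54 by 1.89 ± 0.14, while RTT109, a histone acetyltransferase gene, fell by 1.62 ± 0.11. RAD54 had 211 ± 58.2 CPM at 48 h against 60.2 ± 3.12 CPM in log phase in mms2Δi strains, 253 ± 11.9 against 70.4 ± 27.2 CPM in ysf3Δi strains, and 284 ± 15.7 against 70.5 ± 2.08 CPM in the wild type (SD, n = 2 each). Of 14 genes that work with Rad6 outside damage tolerance, 6 rose and 6 fell (median 0.01), with LGE1, a cofactor of H2B ubiquitination, up by 2.85 ± 0.15, UBR2, a ligase, up by 0.90 ± 0.10, and the methyltransferase gene DOT1 and the Paf1 complex gene CDC73 at -1.61 ± 0.10 and -0.98 ± 0.09.

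Genes of ubiquitin supply and the other conjugating enzymes moved in both directions. Of 19 genes 7 rose and 10 fell (median -0.30): the polyubiquitin gene UBI4 rose by 3.30 ± 0.11, to 1897 ± 204 CPM at 48 h against 173 ± 20.8 CPM in log phase in mms2Δi strains, and the conjugating-enzyme gene UBC8 and the deubiquitinase gene DOA4 rose by 3.31 ± 0.14 and 1.87 ± 0.08. RPL40B, which encodes ubiquitin fused to a ribosomal protein, fell by 2.87 ± 0.13. RPL40A and RPL40B encode the same protein, and reads may be split between them. Of 15 checkpoint genes 8 rose and 6 fell (median 0.26), with the sensor kinase gene MEC1 up by 0.97 ± 0.08, its partner gene LCD1 at -0.55 ± 0.08, the adaptor gene RAD9 at -0.52 ± 0.07 and the effector kinase gene DUN1 at -0.89 ± 0.09. Of 10 genes of the ribonucleotide reductase system, HUG1 was too low to test, and among the other 9, 2 rose and 4 fell (median -0.03): RNR1, the large subunit, fell by 2.73 ± 0.14, the small-subunit gene RNR4 by 0.95 ± 0.09, and the damage-inducible RNR3 and its repressor gene RFX1 rose by 1.84 ± 0.17 and 2.08 ± 0.22. Each gene named from these 6 lists by the size of its adjusted p between phases was called under every alternative tried.

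**Figure D5:**
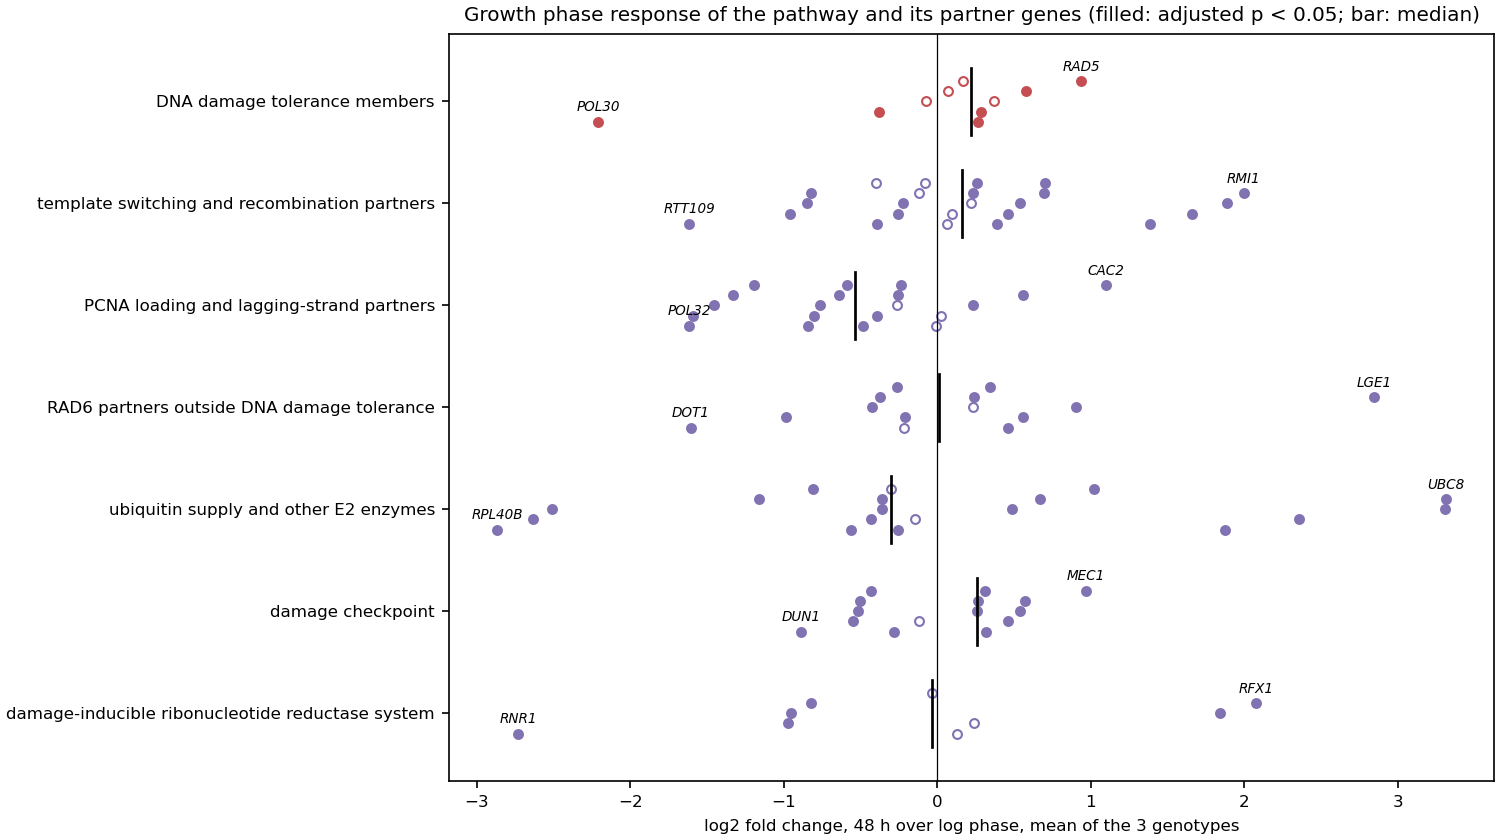
Log2 fold change at 48 h over log phase, mean of the 3 genotypes (horizontal axis, edgeR), of the 10 pathway genes (red) and of the tested genes of 6 partner lists (purple); each point is a gene, filled points have an adjusted p under 0.05, bars are medians and vertical scatter within a row carries no value. POL30 at -2.21 lies below all genes of PCNA loading and the lagging strand, whose median is -0.53.

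In log phase 21 of the 101 tested list genes were called in mms2Δi strains against the wild type (20.8%, beside 27.2% of all genes), with shares from 14.3% of the Rad6 partners to 33.3% of the checkpoint genes. Called higher and lower were 0 and 4 of 24 template-switching genes, 1 and 2 of 20 PCNA-loading genes, 0 and 2 of 14 Rad6 partners, 1 and 4 of 19 ubiquitin genes, 0 and 5 of 15 checkpoint genes, and 2 and 0 of 9 ribonucleotide reductase genes. RNR1 rose by 1.33 ± 0.23 (adjusted p of 0.0116), with 206 ± 49.0 CPM in mms2Δi strains and 82.0 ± 11.6 CPM in the wild type, and its protein inhibitor gene SML1 rose by 1.02 ± 0.29 (adjusted p of 0.0298). RFA2, a subunit of the single-strand binding protein, rose by 1.15 ± 0.29 and RPL40A by 1.12 ± 0.28 (adjusted p of 0.0198 and 0.0218). The flap endonuclease gene RAD27 fell by 0.77 ± 0.16, RTT109 by 0.75 ± 0.18, UBC4, a conjugating enzyme of protein quality control, by 0.70 ± 0.15, BRE1, the Rad6 partner for histone H2B, by 0.69 ± 0.18, and MUB1, a partner of Ubr2, by 0.54 ± 0.12 (adjusted p of 0.014, 0.0186, 0.0142, 0.0221 and 0.0151). RAD9 and LCD1 each fell by 0.50 (SE 0.11 and 0.13, adjusted p of 0.0149 and 0.024), and RTT101, a cullin gene of replication, by 0.43 ± 0.13 (adjusted p of 0.0335). All 12 of these calls were lost without wild-type strain 2 in log phase, and all 12 without mms2Δi strain 2. In ysf3Δi strains, against the same wild-type libraries, RNR1 was at 1.49 ± 0.23, SML1 at 1.55 ± 0.29, RFA2 at 1.49 ± 0.28, RPL40A at 1.12 ± 0.28, RAD27 at -0.67 ± 0.16, UBC4 at -0.68 ± 0.15, BRE1 at -0.83 ± 0.18, MUB1 at -0.43 ± 0.12, RAD9 at -0.49 ± 0.11 and LCD1 at -0.50 ± 0.13, all 10 of them called. RTT109 at -0.44 ± 0.18 and RTT101 at -0.33 ± 0.13 did not pass there (adjusted p of 0.091 and 0.0763). All 10 calls were lost without wild-type strain 2, and 4 were kept with only the libraries compared. At 48 h the mms2Δi strains had 5 list genes called higher and 1 lower of 101 (5.94%, beside 10.6% of all genes), among them RNR1 at 1.17 ± 0.26 (adjusted p of 0.0257), RPL40A at 1.27 ± 0.29 (adjusted p of 0.0277), and the checkpoint kinase gene CHK1 at 0.77 ± 0.18 (adjusted p of 0.0299), and in the ysf3Δi strains edgeR called 0 of the list genes, beside 2.77% of all genes. Without wild-type strain 1 no gene of any kind was called in mms2Δi strains at 48 h.

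The genes whose levels followed MMS2 most closely were ranked by Pearson's r of log2(CPM + 1) over the 12 libraries, among 5121 genes with a mean of at least 10 CPM. They were YBR197C (r of 0.872), HEL1 (0.815), SGV1 (0.806), YDL012C (0.791) and FAP1 (0.786). The 12 libraries share 6 strains and 2 phases, so these values are a description. YBR197C, for example, had 45.4 ± 1.97 CPM at 48 h and 45.1 ± 1.46 CPM in log phase in mms2Δi strains, 40.9 ± 3.04 and 34.1 ± 1.46 CPM in ysf3Δi strains, and 46.4 ± 2.31 and 34.9 ± 0.689 CPM in the wild type. Within the pathway REV3 was closest to MMS2 at 0.561, and UBC13, its protein partner, was at -0.03.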

How the data were processed

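RNA was measured in 12 libraries, 6 groups of 2 strains. Reads were aligned with Bowtie2 to sacCer3 and counted with HTSeq, per the submitters' processing notes, and the authors deposited whole-number counts for 7126 genes; versions and the strandedness of counting are not given in the sources used here. The authors' deposited FPKM divide those counts by a gene length and were used to find that length. The authors' deposited comparison tables hold log2 fold changes and adjusted p-values from DESeq2, per the file headers and the submitters' processing notes.

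From the counts, 6068 genes passed edgeR's expression filter (562 had no count in any library). They were fitted with edgeR 4.0.16 (limma 3.58.1, R 4.3.3): TMM scaling, a quasi-likelihood model with 6 group means and 6 residual degrees of freedom, a common dispersion of 0.0279 and Benjamini-Hochberg adjustment over all genes, with calls at an adjusted p under 0.05. The SE come from the fit's weights and moderated dispersion. The 12 comparisons were the deletions against the wild type and each other per phase, 48 h against log phase, and differences between those. Comparisons with the wild type share its libraries. The scripts were tested on simulated data. Figures were drawn with Python 3.11.15, pandas 2.3.3 and matplotlib 3.10.9.

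Levels per length were planned from FPKM, and CPM per kb of coding length replaced them because the FPKM lengths were faulty. Annotation rows were matched by systematic name (6048) or symbol (31). Strains are the same in both phases per the labels, which pairs the libraries of a phase comparison; deviations of paired libraries correlated at 0.051 in mms2Δi, 0.0395 in ysf3Δi and -0.158 in the wild type. Between genotypes the strain number is only a name. Alternatives were DESeq2 1.42.0 (size factors and Wald test), library totals, no filter, only the libraries compared, the strain as a block, each library left out, and wild-type strain 1 left out.

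The members and lists were chosen with earlier results of these data known. Named are all 10 members, the neighbours of MMS2, YSF3, the mating-type genes, the 5 genes most like MMS2, and from each list up to 4 genes with the smallest adjusted p between phases and up to 2 in mms2Δi against the wild type in log phase. A result that this rule would name is not reported here. STE2, RFC5, YBR089W, CAC2, POL31, RLF2 and CHK1 were named after their values were seen.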

Additional observations from a re-analysis of the deposited data

Results flagged for a closer look

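RAD6 stood apart because its phase differences had opposite signs in mms2Δi and in the wild type. It had 67.3 and 84.6 CPM at 48 h against 58.5 and 59.2 CPM in log phase in mms2Δi strains, and 68.8 and 65.5 CPM at 48 h against 75.8 and 83.0 CPM in log phase in the wild type. Both mms2Δi strains had a higher CPM of RAD6 at 48 h and both wild-type strains a lower one. The log2 fold change was 0.37 ± 0.15 in mms2Δi (adjusted p of 0.0499, and 0.0959 with the replicate block) and -0.24 ± 0.15 in the wild type, which did not pass (adjusted p of 0.175). The difference of the log2 fold changes, mms2Δi minus wild type, was 0.62 ± 0.21, with an unadjusted p of 0.0153 and an adjusted p of 0.502 in edgeR, so it failed the correction over 6068 genes. In ysf3Δi strains RAD6 had 56.0 and 54.9 CPM at 48 h against 58.7 and 47.1 CPM in log phase.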

How the results depend on the processing

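No member changed direction while called. The share of all genes tested that each fit called is given in brackets. In log phase the members called in mms2Δi against the wild type were 0 (27.2%). They became 1 with DESeq2 size factors (27.3%), no filter (24.1%) or only the libraries compared (24.0%). They became 2 with DESeq2's own test (30.5%) and 3 by library totals (32.2%), and some fits with a single library left out gained a call. At 48 h they were 0 (10.6%) and 2 with DESeq2's test (16.7%), and some fits with a library left out gained a call. In ysf3Δi they were 2 in log phase (27.2%), 4 by library totals (33.9%) and 1 with only the libraries compared (10.6%). Fits with a library left out both lost and gained calls there. At 48 h they were 0 in ysf3Δi (2.77%) and 1 with DESeq2's test (7.46%). Between phases the 5 calls in mms2Δi (64.1%) became 3 with DESeq2 size factors (64.1%), no filter (59.6%) or DESeq2's test (58.3%). They also became 3 with only the libraries compared (63.9%) or the replicate block (59.4%), and calls were lost with libraries left out. The 5 in ysf3Δi (66.8%) became 3 with only the libraries compared (65.0%), and some fits with a library left out lost calls. Of the 6 on average (80.5%), some were lost without wild-type strain 1.

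MMS2 between phases in the wild type, 0.42, lost its call with no filter (0.39), DESeq2's test (0.42), only the libraries compared (0.42), the replicate block (0.42), wild-type strain 1 left out (0.41) and each library left out (0.37 to 0.44). Its average over genotypes, 0.26, lost its call with no filter (0.20), DESeq2's test (0.24), the replicate block (0.26) and wild-type strain 1 left out (0.22), and ranged from 0.19 to 0.32 with libraries left out. The cause was not tested. Beside these MMS2 values, the replicate block changed the calls of RAD6 and RAD30 in mms2Δi, UBC13 in ysf3Δi and REV7 on average, and no other member's call in any comparison. Library totals moved the median of all genes by -0.14 in log phase and -0.17 at 48 h in mms2Δi, and by -0.16 and -0.11 in ysf3Δi, and under them MMS2 in mms2Δi at 48 h was at -0.05, against 0.12.

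With 2 strains a group, and where a left-out library leaves 1, the lone library is assumed to vary like the other groups. Depth limits POL30 most, with 15 counts in the smallest 48 h library, and MMS2 had 103 to 372 counts per library.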
